A study of Drosophila melanogaster with 2 samples.

Results

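The muscle identity transcription factors are 10 genes, Kr, eve, ap, kn, vg, sd, Poxm, nau, org-1 and Six4, taken from a written list of factors that give embryonic muscle founder cells their identity. They are 10 of 13945 protein-coding genes on the 6 nuclear chromosome arms. Binding of Ladybird early (Lbe), a homeodomain factor, was mapped near them by ChIP-seq, in which chromatin bound by a protein is precipitated and its DNA sequenced. The Drosophila melanogaster line, lbe-GFP, stably expresses Lbe with GFP at its C-terminus from a transgene, and an antibody to GFP was used. Whole embryos of 0 to 24 h, with males and females pooled, formed 1 group of 2 biological replicates, each from its own biosample. A region was assigned to a gene when its summit, the position of highest signal, lay in the gene body or within 10000 bp of it. By this rule 23 of the 4753 peaks on the arms that passed the irreproducible discovery rate (IDR) threshold of the authors were assigned to the 10 genes.

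Somatic muscles of the Drosophila embryo are each seeded by a founder cell, which fuses with surrounding myoblasts. Each founder expresses a combination of identity factors that sets the size, position and attachments of its muscle. Lbe itself is known as an identity factor of the segment border muscle, in a network where such factors act on each other's genes. Founder cells make up a small part of a whole embryo. A region bound in few cells and a region bound weakly in many cells cannot be told apart in these lists.

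Positions are in dm6 and bases are on the plus strand of the release 6 genome sequence from RefSeq. The bases within 100 bp of the summit are shown for the strongest IDR peak of each of sd, Poxm, nau, org-1 and Six4, because these are the sequences the ranks below refer to. Capitals mark any of 8 short words on either strand: the homeodomain core TAATTA, the ladybird-type word TAACTA, the NK word TCAAGTG, the E-boxes CATATG and CAGCTG, the GATA word AGATAA, the GAGA word GAGAGA and the DRE word TATCGATA.
sd first promoter, chrX:15804206-15804406: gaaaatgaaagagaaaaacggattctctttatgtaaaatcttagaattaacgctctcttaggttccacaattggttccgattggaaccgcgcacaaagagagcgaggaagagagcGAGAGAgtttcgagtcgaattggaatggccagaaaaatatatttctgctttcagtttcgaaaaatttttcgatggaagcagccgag
Poxm promoter, chr3R:8334101-8334301: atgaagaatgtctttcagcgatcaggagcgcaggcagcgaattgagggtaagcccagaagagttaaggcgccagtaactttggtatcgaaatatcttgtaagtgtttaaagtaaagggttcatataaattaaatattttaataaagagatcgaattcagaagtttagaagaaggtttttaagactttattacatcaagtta
nau intron, chr3R:23713975-23714175: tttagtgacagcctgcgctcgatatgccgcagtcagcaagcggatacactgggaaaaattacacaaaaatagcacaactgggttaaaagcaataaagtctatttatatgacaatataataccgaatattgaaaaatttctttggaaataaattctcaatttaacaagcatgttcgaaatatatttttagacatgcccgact
org-1 upstream, chrX:8464468-8464668: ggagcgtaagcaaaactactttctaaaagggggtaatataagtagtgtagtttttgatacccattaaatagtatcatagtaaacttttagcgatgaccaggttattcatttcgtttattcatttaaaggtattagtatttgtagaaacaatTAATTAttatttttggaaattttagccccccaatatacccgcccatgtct
Six4 downstream, chr3L:20786193-20786393: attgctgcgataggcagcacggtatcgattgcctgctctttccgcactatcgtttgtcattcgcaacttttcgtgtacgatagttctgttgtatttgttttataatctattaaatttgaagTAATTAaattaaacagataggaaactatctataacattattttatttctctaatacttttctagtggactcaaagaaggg

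Of these 5 sequences, those at org-1 and Six4 held TAATTA, centred 53 bp and 23 bp from the summit. The sd sequence held GAGAGA, 17 bp from the summit. The Poxm and nau sequences held none of the 8 words. A match shows letters and not a binding site, and a missing word says only that these letters are not in this window.

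Most of the genes had IDR peaks nearby, as did most genes of the genome. An IDR summit was assigned to 7 of the 10 genes (70%), against 59.9% of all protein-coding genes, and the 2 shares lie near each other. The 7 were nau with 6 summits, sd with 4, kn, Poxm and org-1 with 3 each, and vg and Six4 with 2 each. Kr, eve and ap had none. At least 3 summits were found at 5 of 10 genes, against 22.8% of all genes, and at least 6 at nau alone among them, against 3.28%. The median was 2.5 summits over the 10 genes and 1 over all genes. The median body was 11074 bp among the 10 and 2166 bp among all, so their windows were also longer. Per 10 kb of window, the medians were 0.703 and 0.436 IDR summits.

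**Figure D1:**
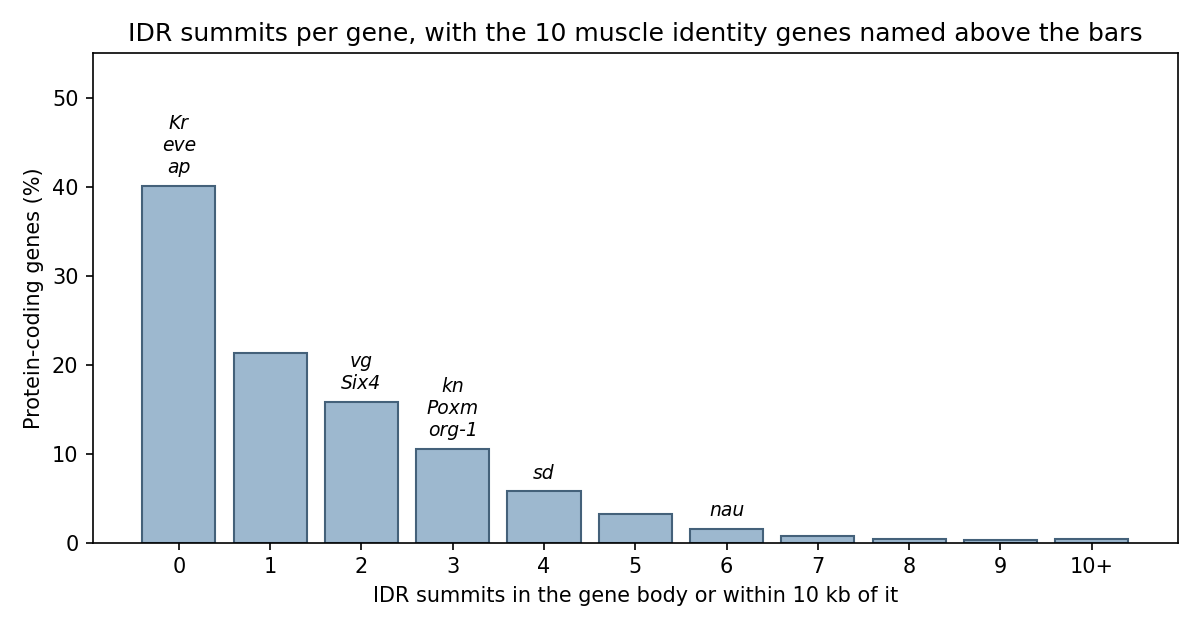
Share of protein-coding genes (y axis, %) by the number of IDR summits in the gene body or within 10 kb of it (x axis; 10+ means 10 or more), with the muscle identity genes named above the bar of their own count. Kr, eve and ap are among the 40.1% of genes with none, and nau is among the 1.55% with 6.

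Gene length bears on these counts. Among genes with a body under 5000 bp, 57% had an IDR summit, and 1 of the 3 muscle genes of that size did (Six4, not Kr or eve). Of genes with bodies of 5000 to 20000 bp, 69.6% had one, as did all 4 of the muscle genes in that range, vg, Poxm, nau and org-1. Of genes over 20000 bp, 66.5% had one, as did kn and sd but not ap.

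The gene body held an IDR summit at 3 of the 10 genes, kn, sd and nau (30%), against 12.1% of all genes. By size, the shares were 0 of 3 short genes against 5.65%, 1 of 4 genes of middle length against 26.1%, and 2 of 3 long genes against 44.4%, which lie on both sides of the background. Of the 23 summits, 4 were in the body of the assigned gene (17.4%), all in introns, 12 were upstream (52.2%) and 7 downstream (30.4%). Over all pairs of a gene and an IDR summit in its window, the shares were 14.5%, 46.3% and 39.3%. The nearest transcription start site (TSS) was that of the assigned gene for 6 of 23 summits (26.1%), against 20.1% of all pairs. The assigned gene's own promoter, within 500 bp of one of its TSSs, held 5 of 23 (21.7%), against 16.7% of all such pairs. Counting any gene's promoter, the figure was 16 of 23 (69.6%), against 55.3% of all IDR peaks. Inside another gene, protein-coding or non-coding RNA, lay 11 of the 23 summits (47.8%), against 44.4% of all pairs. When each summit was given to the gene with the nearest protein-coding TSS, at any distance, sd, Poxm and org-1 had at least 1, which is 3 of the 10 genes against 21.9% of all genes.

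**Figure D2:**
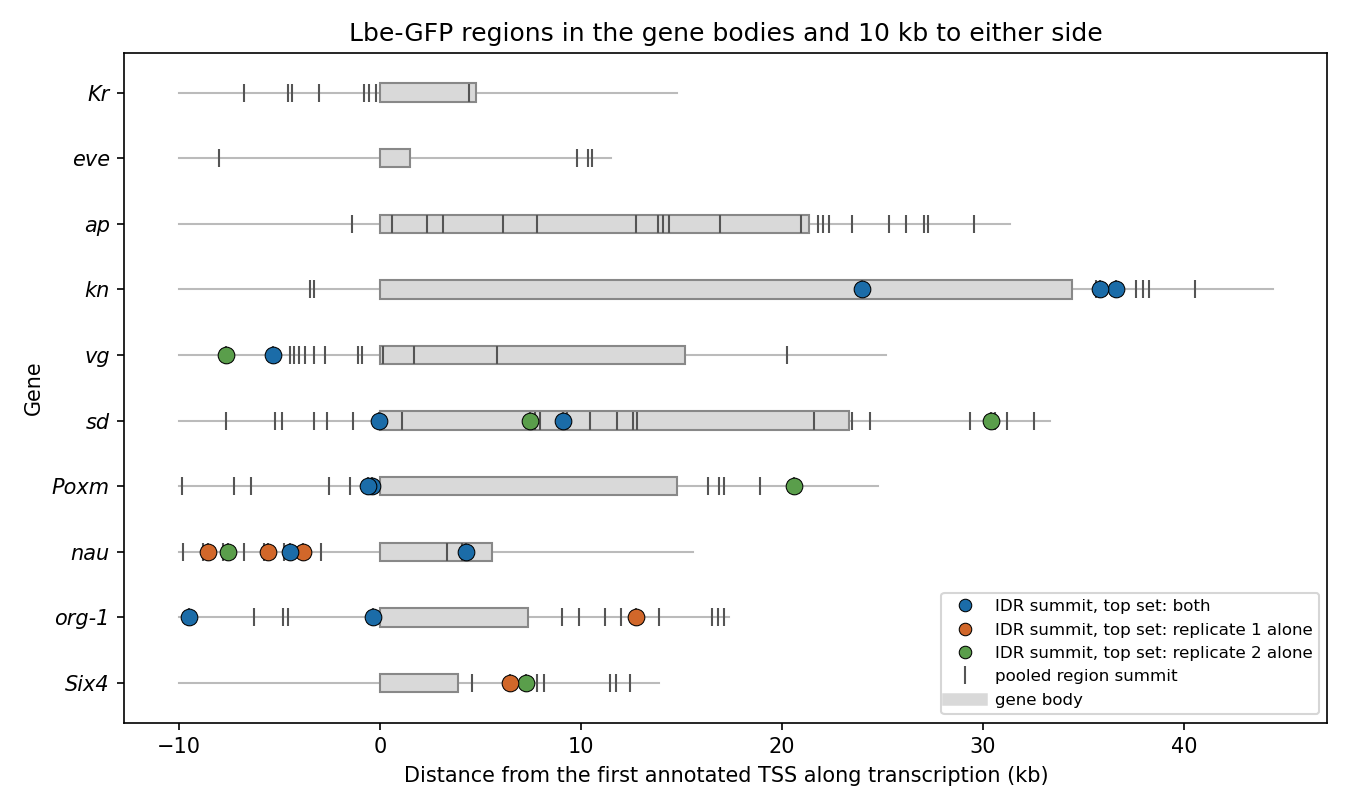
Each row is 1 gene, drawn along transcription from its first annotated TSS (x axis, kb); the grey bar is the gene body, the thin line the window, ticks are summits of the pooled list and circles are IDR summits, coloured by the replicates in whose 4782 strongest regions they were found. The nau circles cluster 3815 to 8580 bp upstream and at 1 intron site, those of sd sit at its start, at internal sites and downstream, and Kr, eve and ap have ticks only.

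Replicate support was measured by rank, since each replicate list was called on its own and its signals are not on 1 scale with those of the other lists. The IDR list is not separate from the pooled list, and the highest signal on the arms was 1790.2 in both. At these genes the IDR peaks were the strongest pooled regions, with the same summits. Their best and last IDR ranks, 555 and 4641, were 554 and 4640 in the pooled list. Rank 1 is the highest signal of a list, the IDR list held 4782 peaks and each replicate list 29999 regions. A summit was supported by a replicate when the nearest summit within 200 bp was among that replicate's 4782 strongest regions. All 23 summits had a region within 200 bp somewhere in both replicate lists, as did 4497 of the 4753 IDR peaks. Among the strongest regions, 12 of 23 (52.2%) were supported by both replicates, 5 by replicate 1 alone and 6 by replicate 2 alone. These are 21.7% and 26.1% of the 23. Over all IDR peaks, 57% were supported by both, 24.7% by replicate 1 alone and 14.7% by replicate 2 alone. The share from replicate 2 alone was thus higher near these genes, on 6 peaks and without a test. The 23 summits ranked between 555 and 4641 in the IDR list, with a median of 2325, near the median of 2405 over all IDR peaks on the arms. Their signals ran from 101 to 295 with a median of 149, against 147 over all.

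**Figure D3:**
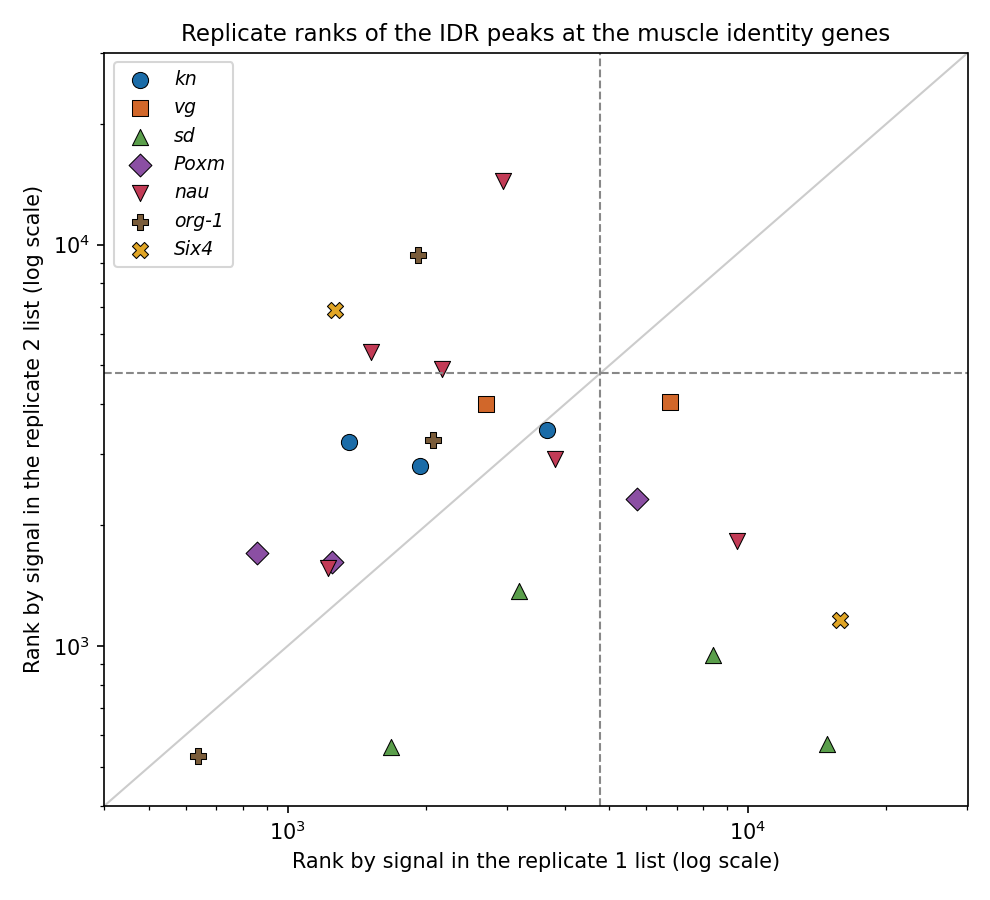
Each point is 1 of the 23 IDR peaks, placed by the rank of its matching region in replicate 1 (x axis, log scale) and replicate 2 (y axis, log scale); dashed lines mark rank 4782, the grey line equal ranks, and colours and shapes the genes. The 12 points at lower left are supported by both replicates, and single peaks of sd (14858), Six4 (15854) and nau (14429) have the lowest ranks in 1 replicate.

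nau encodes the only Drosophila homologue of the vertebrate MyoD family, a bHLH factor needed for a subset of muscles. The gene (FBgn0002922, 3R, 23712814 to 23718357, minus strand) had the most IDR summits of the 10, with 6. Among the 4782 strongest regions of replicate 2, whether or not strong in replicate 1, it had 3, fewer than the 5 of sd. Among those of replicate 1 it had 5. Its density of 2.35 IDR summits per 10 kb exceeded that of 97.5% of protein-coding genes. None of the 6 summits had its nearest TSS at nau. The strongest peak (23713988 to 23714146, signal 216, rank 1095) lay in an intron of nau. This peak was 4282 bp from the nau TSS and 2548 bp from the nearest TSS, that of CG10300. It ranked 1224 in replicate 1 (signal 132) and 1560 in replicate 2 (signal 76.9), and it was the first region of the locus in each.

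The other 5 nau peaks lay upstream, at summits 23722172, 23722859, 23723925, 23725943 and 23726937. These are 3815, 4502, 5568, 7586 and 8580 bp from the gene, with gaps of 687 to 2018 bp between neighbours. The last 3 were inside the neighbouring gene CG10365, and only the one at 23722859 was at a promoter, 472 bp from a CG10365 TSS. In replicate 1 they ranked 2931, 3808, 2160, 9467 and 1515, with signals of 85.5, 73.5, 99.2, 41.5 and 119. In replicate 2 they ranked 14429, 2921, 4906, 1827 and 5398, with signals of 17.7, 56.9, 42.5, 71.7 and 40. The order of the 5 differed between replicates, and of them only the peak at 23722859 was in the top set of both. It was also the weakest of the 6 in the IDR list (signal 101, rank 4641).

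Poxm encodes a Pax family factor that acts early in the ventral and lateral muscle primordia. The gene (FBgn0003129, 3R, 8319025 to 8333792, minus strand) had 3 peaks and none in its body. A pair of overlapping peaks had summits 409 and 613 bp upstream of the Poxm TSS and 204 bp apart, so they share sequence and are not independent regions. The nearer (8333996 to 8334405, signal 235, rank 914) ranked 857 in replicate 1 (signal 156) and 1704 in replicate 2 (signal 73.7). The farther (8334293 to 8334465, signal 202, rank 1271) ranked 1247 (signal 131) and 1617 (signal 75.6). Both replicates thus held the pair among their strongest regions, in opposite order. The remaining peak (8312976 to 8313385, signal 127, rank 3149) was 5844 bp downstream of Poxm and 27 bp from the TSS of CG7483. It ranked 5733 in replicate 1 (signal 57.6) and 2323 in replicate 2 (signal 64.1).

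org-1 encodes a T-box factor of the Tbx1 group, an identity factor of several muscles and of the alary muscles. The gene (FBgn0021767, X, 8447691 to 8455069, minus strand) carried the strongest of all 23 peaks, but at the far edge of its window. That peak (8464462 to 8464712, signal 295, rank 555) was 9499 bp upstream of org-1 and 130 bp from the TSS of Sptr, which encodes sepiapterin reductase. It ranked 639 in replicate 1 (signal 180.4) and 531 in replicate 2 (signal 119), the first region of the locus in both. The peak at the org-1 promoter itself (8455351 to 8455511, signal 161, rank 1990) was 374 bp from the TSS and ranked 2067 (signal 101) and 3254 (signal 53.9). Another (8442117 to 8442526, signal 119.6, rank 3492) was 26 bp from the TSS of CG12123, and ranked 1923 in replicate 1 (signal 105) but 9415 in replicate 2 (signal 26.3).

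Six4 encodes a homeodomain factor of the sine oculis family, needed for muscle and other mesodermal derivatives. Both of its peaks (FBgn0027364, 3L, 20788886 to 20792777, minus strand) lay downstream of it, by 2593 and 3392 bp. The stronger (20786088 to 20786497, signal 187, rank 1456) was 96 bp from the TSS of Pcif1. Its rank was 1269 in replicate 1 (signal 129) and 6866 in replicate 2 (signal 34) by the nearest summit. A stronger region of replicate 2, of rank 2833 (signal 57.9), had its summit farther off, at 20786168. The weaker (20785289 to 20785698, signal 101, rank 4605) was the first region of the locus in replicate 2, at rank 1159 (signal 88.2), and ranked 15854 in replicate 1 (signal 28.4). The replicates therefore placed their strongest Six4 regions 760 bp apart.

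Replicate 1 also had a region 5816 bp upstream of Six4 (20798510 to 20798653, signal 124, rank 1396), 52 bp from the TSS of tzn. No region of the pooled or the replicate 2 list overlapped it. Over the arms, 190 of the 4753 strongest regions of replicate 1 (4%) and 104 of 4750 of replicate 2 (2.19%) overlapped no pooled region.

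sd encodes the TEAD family DNA-binding protein Scalloped, and vg encodes Vestigial, the cofactor that binds it. The pair is known from wing development and is also required in ventral longitudinal muscles. At sd (FBgn0003345, X, 15804370 to 15827682, plus strand), 3 of 4 peaks were at the gene's own start sites. The other 2 of the 5 summits at own promoters were the nearer Poxm peak and the org-1 promoter peak. The first (15804249 to 15804351, signal 225, rank 1008) was 64 bp upstream of the first TSS. It ranked 1673 in replicate 1 (signal 112) and 561 in replicate 2 (signal 117), the first region of the locus in both. A further pair of peaks lay in introns, 104 bp (15813244 to 15813653, signal 168, rank 1804) and 241 bp (15811648 to 15812057, signal 145, rank 2477) from internal TSSs of sd. The former ranked 3181 (signal 81.3) and 1373 (signal 82.2). The latter ranked 14858 in replicate 1 (signal 29.9) and 571 in replicate 2 (signal 116), where it was the next strongest region of the locus.

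The last sd peak (15834544 to 15834953, signal 150.2, rank 2286) was 5 bp from the TSS of Chc, the clathrin heavy chain gene, and 7067 bp downstream of sd. It ranked 8411 in replicate 1 (signal 45) and 952 in replicate 2 (signal 96.1). All 4 peaks of this gene thus ranked higher in replicate 2. A replicate 2 region in the 5′ UTR of sd (15811932 to 15812341, rank 4451) overlapped the peak at the summit 15811853, but its own summit lay more than 200 bp from it.

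Words near the summit are shown for the other IDR peaks of these 5 genes that held 1 of the 8 words within 26 bp of the summit, which was settled once their values were known. Closeness was the rule of choice, so these peaks do not show how near to a summit the words usually lie. Other words lay farther out, such as TAATTA 83 bp from the nau summit at 23722172. Each line gives the 61 bases centred on the summit, again with the words in capitals.
org-1 promoter, chrX:8455413-8455473: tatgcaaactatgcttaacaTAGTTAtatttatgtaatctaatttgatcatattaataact
Poxm promoter, farther summit, chr3R:8334375-8334435: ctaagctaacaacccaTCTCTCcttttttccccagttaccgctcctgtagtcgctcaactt
Poxm downstream, chr3R:8313151-8313211: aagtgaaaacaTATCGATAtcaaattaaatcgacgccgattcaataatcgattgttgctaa
sd internal start site, chrX:15811823-15811883: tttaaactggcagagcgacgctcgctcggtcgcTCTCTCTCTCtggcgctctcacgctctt
sd downstream at Chc, chrX:15834719-15834779: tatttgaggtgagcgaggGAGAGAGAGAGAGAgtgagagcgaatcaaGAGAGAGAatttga
nau upstream, chr3R:23722829-23722889: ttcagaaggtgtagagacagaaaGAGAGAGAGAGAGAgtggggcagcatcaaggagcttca
nau upstream in CG10365, chr3R:23723895-23723955: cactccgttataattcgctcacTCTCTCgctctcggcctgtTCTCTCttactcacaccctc

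The org-1 promoter peak held TAACTA on the minus strand (TAGTTA as printed), 8 bp from the summit. It was the only 1 of the 23 summits with that word within 100 bp, or 4.35%, against 11.4% of all IDR peaks. TAATTA lay at 4 of 23 (17.4%), against 15.6%, in peaks of org-1, Six4 and, for 2 of them, nau. The TAATTA share turned with the replicate. Of all strong regions of replicate 2 at these genes, 1 of 22 held it (4.55%), against 11.7% of all strong regions of that replicate. Of those of replicate 1, 6 of 18 did (33.3%), against 17.7%. Regions strong in both replicates are in both counts. Within 50 bp of the summit, TAATTA was at 1 of the 23. These shares rest on a few peaks and were not tested.

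GAGAGA, the word bound by GAGA factor, was at 9 of 23 summits (39.1%), against 15% of all IDR peaks. Among the strongest regions of replicate 1 it was at 4 of 18 (22.2%), against 11.3% of all of them. Among those of replicate 2 it was at 7 of 22 (31.8%), against 20.5%. The 9 were 3 peaks of sd, 2 of nau, 2 of vg and 1 each of Poxm and Six4. Overlapping copies are each in capitals above and count as 1 peak. The share was not tested, and peaks of 1 locus share their surroundings. In replicate ranks, 6 of the 9 summits with GAGAGA ranked higher in replicate 2, against 5 of the 14 without it. Over all IDR peaks matched in both lists, the shares were 62.3% with the word and 37.1% without it. The peaks with the highest rank in replicate 2 relative to replicate 1, at the sd internal start site and downstream of Six4, both held it.

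Of the remaining words, CAGCTG lay at 1 summit (vg), against 11% of all IDR peaks, CATATG at 1 (kn), against 6.9%, and AGATAA at 2 (nau and vg), against 13.3%. TCAAGTG was at 1 (kn), against 3.6%, and the DRE word TATCGATA at 1, the Poxm peak at the CG7483 start, against 5.05%. Bases A and T made up a median of 61.2% within 100 bp of the 23 summits, with a range of 47.3% to 69.7%. Over all IDR peaks the median was 64.2%. The lowest value was that of the sd internal start site.

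vg (FBgn0003975, 2R, 12884201 to 12899385, plus strand) had 2 IDR peaks, both upstream and both at promoters of other genes. The stronger (12878667 to 12879076, signal 132, rank 2961) was 5329 bp from vg and 66 bp from a TSS of Nmda1, an NMDA receptor gene. It was the first region of the locus in both replicates, at ranks 2704 (signal 88.9) and 4010 (signal 48). The weaker (12876335 to 12876744, signal 104, rank 4434) was 147 bp from a TSS of Lfg and ranked 6760 in replicate 1 (signal 51.9) and 4053 in replicate 2 (signal 47.7). No IDR peak was at a start site of vg itself. A region 1002 bp upstream of vg ranked 6965 in replicate 1.

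kn encodes Knot, also named Collier, a COE family factor and the identity factor of a dorsal acute muscle. Its 3 peaks (FBgn0001319, 2R, 14772650 to 14807061, minus strand) were all in the top sets of both replicates. The 2 downstream ones (14771059 to 14771468, signal 177, rank 1612, and 14770233 to 14770642, signal 157, rank 2089) were each 31 bp from the nearest TSS, that of asRNA:CR42254 for the former and of BEAF-32, an insulator protein gene, for the latter. They ranked 1358 and 1937 in replicate 1 (signals 125 and 104), and 3227 and 2807 in replicate 2 (signals 54.1 and 58.3), so their order turned between the replicates. The intron peak (14782882 to 14783291, signal 130.1, rank 3024) was 13940 bp from the nearest kn TSS and ranked 3662 (signal 75.3) and 3450 (signal 52.1). It was 11786 bp from any TSS, the largest such distance among the 23 summits, whose median was 241 bp.

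Kr, eve and ap, on 2R as well, had no IDR peak in their windows. All 3 are known outside muscle, Kr as a gap gene, eve as a pair-rule gene and ap as a selector of the dorsal wing, and each also acts in founder cells. The pooled list, which includes background regions, held regions at all 10 genes, and at 82.8% of all genes. It had 8 at Kr (FBgn0001325, 25226611 to 25231394, plus strand), of which the best ranked 15283 (signal 40.5) and lay 4575 bp upstream. Replicate 1 had 8 regions there, the first at rank 9498 (signal 41.4), and replicate 2 had 0. With no read counts, the 0 cannot be given an upper limit.

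At eve (FBgn0000606, 9979319 to 9980795, plus strand) the pooled list had 4 regions, none in the body, and the best (9989445 to 9989854) ranked 7982 (signal 69.4) and lay 8855 bp downstream. The strongest region of replicate 1 (rank 5785, signal 57.3) lay upstream and that of replicate 2 (rank 4860, signal 42.8) downstream, 18072 bp apart. Past the window, 19427 bp upstream of eve, was an IDR peak of rank 67 (signal 759). At ap (FBgn0267978, 5706202 to 5727525, minus strand) there were 21 pooled regions, 11 of them in the body, with the best at rank 9022 (signal 63.3), 5930 bp downstream. The strongest region of replicate 1 was nearly at the same place, at rank 6311 (signal 54.3). In replicate 2, a region 3983 bp downstream of ap and 107 bp from the TSS of vlc ranked 3164 (signal 54.7). No region of replicate 1 overlapped it, and the overlapping pooled region ranked 12860.

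**Figure D4:**
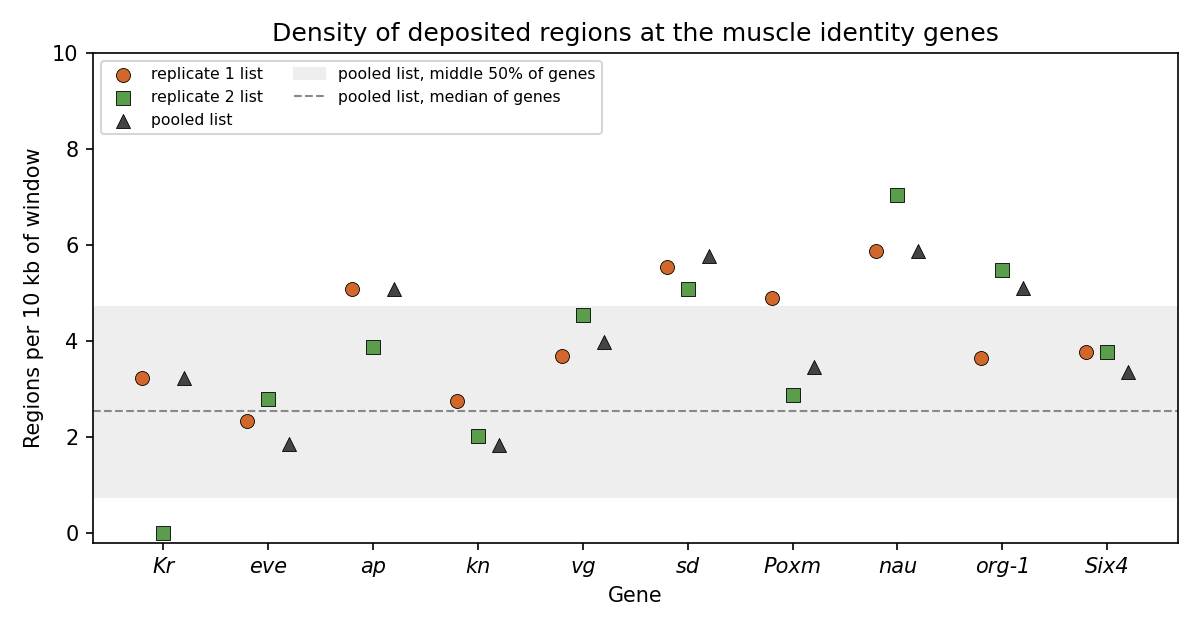
Regions per 10 kb of window (y axis) at each gene (x axis) in the full lists of replicate 1 (circles), replicate 2 (squares) and both pooled (triangles); the grey band spans the middle 50% of protein-coding genes in the pooled list and the dashed line their median of 2.55. Pooled values run from 1.84 at kn to 5.87 at nau, and Kr has no square above 0.

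All pooled regions together gave another order of the genes than the IDR peaks. Per 10 kb of window, kn had 1.84 pooled regions and eve 1.86, both under the median of 2.55 over all genes. Kr had 3.23, Six4 3.35, Poxm 3.45 and vg 3.98. The highest were ap with 5.08, org-1 with 5.11, sd with 5.77 and nau with 5.87, above the upper quartile of 4.71. ap thus had nearly as many regions per length as org-1, but none that passed the IDR threshold.

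The top 4782 regions of each replicate gave similar lists of genes. In replicate 1, 7 of the 10 genes had such a region, against 62.4% of all genes. In replicate 2, 8 did, against 58.1%, the added gene being ap. The strongest regions of the 2 replicates had summits within 200 bp of each other at vg, sd, Poxm, nau and org-1. These are 5 of the 7 genes with an IDR summit (71.4%), against 64.1% of all genes with one. At Poxm the 2 summits were 171 bp apart and matched different peaks of the overlapping pair. Summits within 200 bp are thus not always the same peak, and this holds for the share over all genes too. Near the limit of the window, the org-1 peak at 9499 bp was the last one inside, and another at 10590 bp from org-1 (signal 135, rank 2849) was the first one outside. With 20000 bp, an alternative added after the data were seen, vg went from 2 summits to 8 and Six4 from 2 to 7. The counts of the other genes changed less.

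A further 14 genes of muscle identity, slou, Dr, lbe, lbl, lms, ara, caup, mid, H15, tup, Ptx1, tey, pdm2 and eya, were counted in the same way. An IDR summit was assigned to 6 of these 14, with 2 at most, against 59.9% of all protein-coding genes. By nearest TSS the order of the lists turned, with 7 of the 14 genes against 3 of the 10, and 21.9% of all genes. The share of the 14 thus lay below that of all genes by window and above it by nearest TSS. The strongest peak was at tup, an LIM-homeodomain gene, 1749 bp downstream (2L, 18857640 to 18857920, signal 462, rank 193). It ranked 159 and 429 in the replicates. caup had an intron peak (signal 148, rank 2364), which ranked 2843 in replicate 1 and 3256 in replicate 2. lbe had one 5824 bp upstream (signal 135, rank 2813), supported by replicate 1 alone, with ranks of 1809 and 4991. The lbl peak 273 bp upstream (signal 133, rank 2886) was also in the lbe window. It was supported by replicate 2 alone, with ranks of 8113 in replicate 1 and 1201 in replicate 2. The median pooled density of these genes was 1.76 per 10 kb, against 3.72 for the 10 genes, and the difference was not tested.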

How the data were processed

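The authors deposited narrowPeak region lists made from the sequenced libraries, and no reads or counts were used here. Per the file list deposited with the samples, regions were called against a control on each replicate and on both pooled, including background regions, and the IDR list was derived from these 3 lists. The alignment and calling programs were not given in the sources used here. A signal value accompanies every region, as deposited by the authors, on a scale not stated, so signal was used only to rank regions within a list. The lists in dm3 and signal tracks were not used, and the control was not analysed here. Per the labels, the antibody was to GFP in one field, while another field names lbe as its target. Depth is unknown, and so no counting interval is given.

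Summits were computed as the region start plus the deposited offset and compared with the Ensembl release 115 annotation (BDGP 6.54), whose coordinates are dm6. No region on the arms ended past the reference. Gene bodies, windows of 10000 bp, TSSs of protein-coding and non-coding RNA genes and words within 100 bp of the summit were handled with Python 3.11.15, pandas 2.3.3 and numpy 2.4.6, and the counting was tested on simulated data. There is 1 group, so no test was made, and shares are set beside those of all genes or peaks. The members, gene lists and words were chosen with earlier results of these data known. All 10 genes and each of their IDR peaks are named, with the strongest other regions where a gene had none, and up to 4 of the 14 further genes with the highest signal. The rule for the 61-base sequences was chosen after the data were seen.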

Additional observations from a re-analysis of the deposited data

How the results depend on the processing

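The number of the 10 genes with an IDR summit was 7. It stayed between 5 and 8 with windows of 2000, 5000 and 20000 bp and with the upper 50% of peaks by signal. The same held with summits inside other protein-coding genes left out. It was 3 in the gene body alone and 3 when a summit went to the gene with the nearest protein-coding TSS. With the 4782 strongest regions of replicate 2 alone, that is without replicate 1, it was 8, and without replicate 2 it was 7. The 23 summits became 14 with 5000 bp, 9 with 2000 bp, 4 in the body, 38 with 20000 bp (an alternative added after the data were seen), 6 by nearest TSS, 14 with summits inside another protein-coding gene left out, and 12 among the upper 50% by signal. Without 1 replicate they ranged from 18 to 22. nau went from 6 summits to 3 without replicate 1 and to 5 without replicate 2, sd from 4 to 5 and 2, and vg and Poxm lost 1 each without replicate 2.

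The 6 further muscle genes with a summit became 2 in the body, 10 with 20000 bp 2 among the upper 50%, 7 by nearest TSS, where the 10 genes had 3, and 5 to 6 without 1 replicate. The 12 summits supported by both replicates became 20 with top sets of 10000 regions and 23 with the full lists, and 11 to 13 under the other matching rules. Pooled regions numbered 131, and 30 in the body alone. They were 123 to 137 in the lists of single replicates. TAATTA fell from 4 summits to 1 within 50 bp, and was at 1 to 6 without 1 replicate. TAACTA was at 3 over the whole region and at 1 to 2 without 1 replicate. GAGAGA was at 9 of 23 IDR summits. It was at 7 of 22 summits among the strongest regions of replicate 2, and at 4 of 18 among those of replicate 1. Its alternatives were added after the data were seen. Promoter summits became 5 at the gene's own TSSs. The causes were not tested. No paired analysis was possible because there is 1 group. Read depth is unknown, and the pooled list and both replicate lists hold 29999 regions each.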
